A study of Mus musculus with 12 samples.

Results

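The genes described here are those of the nuclear receptor PPARα and of fatty acid oxidation, 39 genes chosen by name as members of the textbook pathway. The choice was made with earlier results of these data known, so it was not independent of the measured values. Of these, 37 were measured, by 38 probe sets, out of 21408 genes and 23991 probe sets on the arrays. Acsl1, an acyl-CoA synthetase, and Hadhb, the β subunit of the mitochondrial trifunctional protein, are not analysed here. Expression was measured on 12 Affymetrix arrays, 1 per sample, of RNA from the small intestine of wild-type BALB/c mice. All 12 had been given total body irradiation followed by bone marrow and T cells from a C57BL/6N donor, a transfer between strains that models acute graft-versus-host disease, and were studied on day 14. The 6 samples of the TUDCA group came from mice injected daily into the peritoneum with 200 mg/kg tauroursodeoxycholic acid, a taurine-conjugated bile acid, and the 6 of the vehicle group from mice injected with the same volume, 200 µl, of vehicle. The labels give neither age nor sex, include no mice without irradiation or transplant, and do not say that each sample is a separate mouse, so p-values measure the spread between these samples.

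PPARα is a receptor that fatty acids and their derivatives activate. Paired with a retinoid X receptor, it binds repeats of the letters AGGTCA near its target genes and raises the expression of genes that bring fatty acids into mitochondria and peroxisomes and break them down there. In the small intestine these genes are most active in the absorptive enterocytes of the villus, which take up dietary lipid and either export it or burn it, and the coactivator PGC-1α joins this programme to the making of mitochondria.

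The samples also carry running numbers of unstated meaning, which form a low and a high range, and every difference was estimated within these ranges. TUDCA replicates 1 and 2 and vehicle replicates 1 to 4 belong to the low range, and the other 4 TUDCA and 2 vehicle replicates to the high range. A difference is the TUDCA minus the vehicle value on the log2 scale, given with its standard error (SE), and a gene is said to rise or fall where its adjusted p, from limma with Benjamini-Hochberg adjustment over all probe sets, was 0.05 or less. Array medians lay from 5.90 to 5.95 and the median difference over all genes was 0.01. The description field of the labels names CXCL12-abundant reticular cells where all others name small intestine. The enterocyte gene Vil1 lay between 12.06 and 12.32 on every array, and the 8 reticular cell markers had a mean level of 6.89 to 7.37. Genes of the distal small intestine were bright (Fabp6, a bile acid binding protein of the ileum, from 12.4 to 13.3) and their mean level over 9 markers was 9.84 to 10.78. Genes of the proximal part were mixed, with Lct (lactase, from 4.86 to 5.99) dim, Npc1l1 (a cholesterol transporter, from 10.4 to 11.7) bright, and a mean level over 9 markers of 7.04 to 7.53. TUDCA replicate 3 stood apart in these genes, with the lowest values of all 12 arrays for Fabp6 (12.4) and for the gut hormones Nts (6.35, against 8.26 or more elsewhere) and Pyy (6.58, against 7.88 or more). On that array the mean level of 7 enteroendocrine cell markers, Pyy among them, was also the lowest (6.39, against 6.93 or more elsewhere).

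The PPARα and fatty acid oxidation genes did not move as a group. Of the 37 measured genes 3 rose under TUDCA (Acox2, Acot1 and Acads), 2 fell (Vnn1 and Ppargc1a) and 32 did not pass. Over all genes 2.59% passed, 1.01% higher and 1.57% lower, and over all probe sets 2.52%, 1% higher and 1.52% lower. The differences of the 37 genes were positive in 19 and negative in 18, with a median of 0.01, that of all genes. An unadjusted p under 0.05 was found for 12 of the 37 genes, against 14.2% of all genes. In all 37 genes the range of the TUDCA values overlapped that of the vehicle values. Over all genes the groups did not overlap in 2.02%, a share too small for none of 37 to stand out. All 6 TUDCA values lay on 1 side of the vehicle mean of their own number range in 9 of the 37 genes (above it in 6, below it in 3), against 16.3% of all genes. The count depended on single arrays: without TUDCA replicate 1 it was 1 higher and 0 lower in limma (7 and 3 at an unadjusted p under 0.05, against 8 and 4 with all arrays), and without TUDCA replicate 2 it was 1 higher and 2 lower. Without TUDCA replicate 3 the same 3 genes rose, and Slc25a20 joined the 2 that fell.

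**Figure D1:**
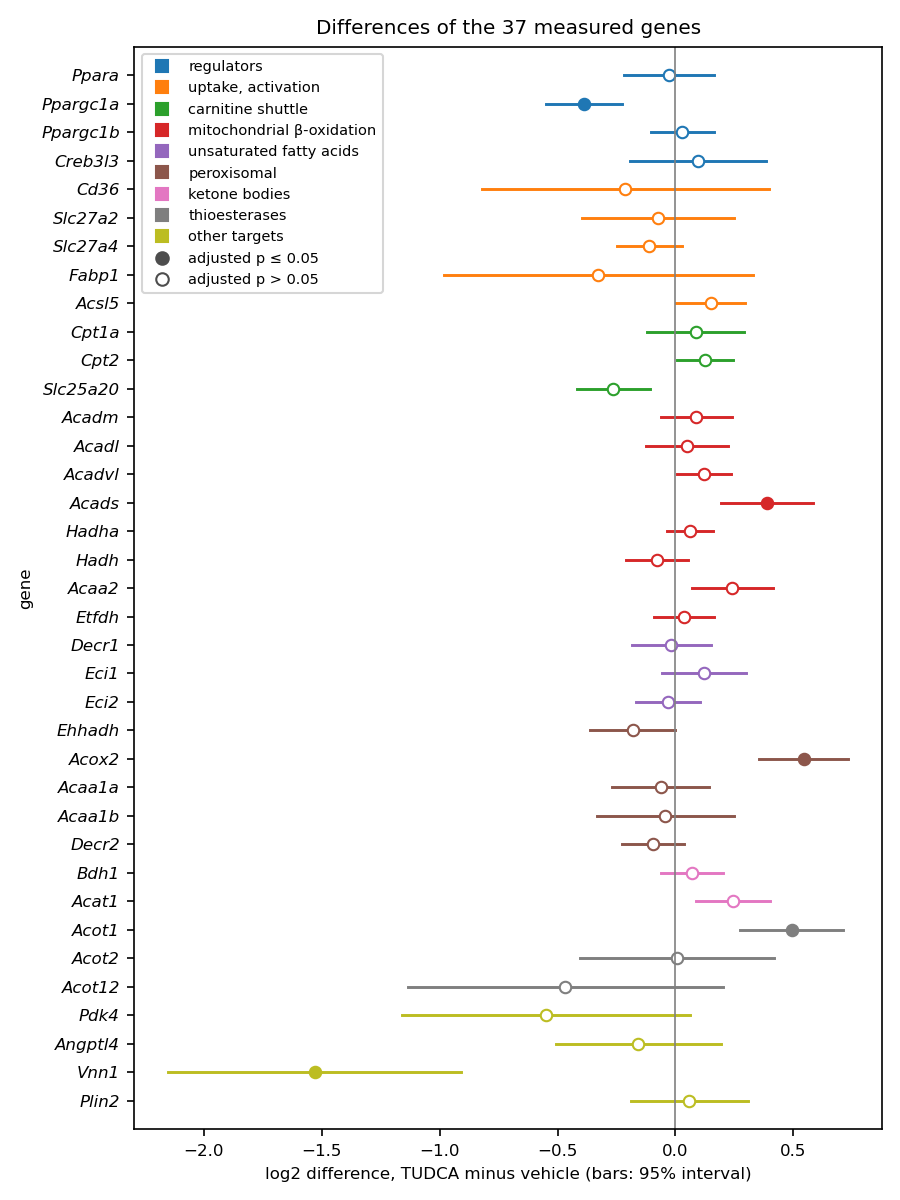
Difference between TUDCA and vehicle in log2 units (horizontal axis, TUDCA minus vehicle) for each of the 37 measured genes, coloured by role, with 95% intervals from limma. Filled points passed the adjusted p of 0.05: Acox2, Acot1 and Acads lie to the right of 0 and Ppargc1a and Vnn1 to the left, and most of the other genes lie close to 0.

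The receptor itself did not pass the test. The log2 values of Ppara ran from 7.20 through a median of 7.33 to 7.49 in the TUDCA samples and from 7.08 through 7.47 to 7.67 in the vehicle samples. The TUDCA values lay inside the span of the vehicle values, whose 4 low-range samples (7.41 to 7.67) were all above the 2 high-range samples (7.08 and 7.24). The difference was −0.03 ± 0.09 (SE; 95% interval from −0.22 to 0.16; adjusted p of 0.934 in limma). Ppargc1b, which encodes the related coactivator PGC-1β, differed by 0.03 ± 0.06. Creb3l3 encodes CREB-H, a membrane-bound transcription factor of liver and gut that acts together with PPARα in fasting. Values ran from 9.63 through 9.89 to 10.44 under TUDCA and from 9.66 through 9.81 to 9.99 under vehicle, with TUDCA replicates 1, 3 and 4 above all vehicle samples and the other 3 among or just below them. The difference of Creb3l3 was 0.10 ± 0.14 (SE; adjusted p of 0.817 in limma).

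Ppargc1a, the gene of the coactivator PGC-1α, fell. Its values ran from 7.97 through a median of 8.48 to 8.64 in the TUDCA samples and from 8.57 through 8.70 to 8.85 in the vehicle samples. TUDCA replicates 1 and 2 were the lowest of all arrays (7.97 and 8.28), only replicates 4 and 5 reached the lowest vehicle values, and all 6 lay below the vehicle mean of their number range. Means were 8.41 ± 0.25 (SD, n = 6) and 8.70 ± 0.11 (SD, n = 6), and the difference was −0.39 ± 0.08 (SE; adjusted p of 0.0133 in limma), 1.31-fold lower. Within the low range it was −0.51, and in the high range −0.27. The call was lost without TUDCA replicate 1 (−0.30, adjusted p of 0.0582), in the fit without the number range (−0.29, adjusted p of 0.172) and in the high range alone (adjusted p of 0.410), and adjusted p ran from 0.00699 to 0.410 over all alternatives in limma. The call was also lost with the replicate numbers as terms of the fit, with or without the number range. A promoter window of Ppargc1a is shown because the gene is known to respond to cAMP signalling. Whether this window holds the promoter that responds was not tested. The 250 bases before the annotated start used here are at chr5:51567726-51567975 on the minus strand of GRCm38.p6 (RefSeq). Capitals mark the letters of a cAMP response element variant, TGACGTGG, read here from the opposite strand, 52 to 45 bases before that start.
Ppargc1a promoter: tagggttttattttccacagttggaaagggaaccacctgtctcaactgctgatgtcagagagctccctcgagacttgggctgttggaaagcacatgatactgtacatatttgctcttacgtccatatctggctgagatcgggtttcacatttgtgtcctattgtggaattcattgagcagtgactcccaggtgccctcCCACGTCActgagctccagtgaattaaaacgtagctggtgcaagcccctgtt
This variant stood in the windows of 1 of the 33 listed genes that have a RefSeq promoter entry, and in 0.563% of all 32851 promoter windows. The full element TGACGTCA stood in no window of the 33 and in 1.55% of all windows. Bases outside these windows, such as those before another start of Ppargc1a, were not searched. Both strands were searched, and the matches are descriptions of sequence only.

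The genes for fatty acid uptake and activation did not pass in either direction (0 of 5 measured, smallest adjusted p of 0.341 in limma, 1 at an unadjusted p under 0.05). Cd36, a fatty acid translocase of the cell surface, ran from 6.93 through a median of 7.78 to 8.37 under TUDCA and from 7.12 through 7.72 to 8.50 under vehicle, and differed by −0.21 ± 0.29 (SE; adjusted p of 0.803 in limma). The groups overlapped almost wholly. The arrays low for Cd36 were TUDCA replicates 1 and 2 (7.39 and 6.93) and vehicle replicates 1, 4 and 5 (7.28, 7.13 and 7.12), while all others lay at 7.60 or above. The same 5 arrays had the lowest mean level of 8 adipocyte markers (6.00 to 6.45, against 6.95 to 8.08 on the other 7), whose mean level ran from 6.00 to 7.47 in the TUDCA group and from 6.34 to 8.08 in the vehicle group. None of these 8 markers passed (smallest adjusted p of 0.0630 in limma, 2 at an unadjusted p under 0.05), and their part in the values of Cd36 was not tested. In bulk tissue fewer cells of a type and less RNA per cell cannot be told apart. The fatty acid transport proteins Slc27a4 and Slc27a2 differed by −0.11 ± 0.06 and −0.07 ± 0.15, and a second, dimmer probe set of Slc27a2 gave the opposite sign, 0.16 ± 0.09. Acsl5, an acyl-CoA synthetase of the enterocyte, differed by 0.15 ± 0.07 (SE; adjusted p of 0.341 in limma), with 5 of 6 TUDCA values above the vehicle mean of their range.

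Fabp1, the liver-type fatty acid binding protein that carries fatty acids inside enterocytes, was dim on these arrays, from 4.78 through a median of 5.01 to 6.08 under TUDCA and from 4.74 through 5.35 to 6.59 under vehicle. TUDCA replicate 3 and vehicle replicates 2 and 4 were the high arrays (6.08, 6.59 and 6.10), and the others lay at 5.58 or below, under the array medians. The difference was −0.33 ± 0.31 (SE; adjusted p of 0.707 in limma). Fabp1 is the gene of the list whose promoter carried the PPAR repeat, and its 250 bases before the start are shown for that reason, at chr6:71199629-71199878 on the plus strand of GRCm38.p6 (RefSeq), with the repeat in capitals, 67 to 55 bases before the start on the opposite strand.
Fabp1 promoter: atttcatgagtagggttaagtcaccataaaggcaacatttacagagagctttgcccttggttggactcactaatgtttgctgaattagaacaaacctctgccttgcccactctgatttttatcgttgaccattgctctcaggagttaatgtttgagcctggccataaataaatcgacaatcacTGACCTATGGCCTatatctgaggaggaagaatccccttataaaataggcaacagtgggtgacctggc
The repeat searched, on both strands, was AGGNCA, any base, AGGNCA, where N is any base, and it stood in 0.338% of all promoter windows. The exact form, AGGTCA, any base, AGGTCA, stood in 0.0335% of all windows and in none of the listed genes. The single unit AGGTCA, which overlaps the repeat, stood in the windows of 9 of the 33 genes (Acadm, Acadvl, Acot12, Cd36, Cpt1a, Creb3l3, Fabp1, Plin2 and Slc27a2), that is 24.3% of their 37 windows against 14% of all windows. None of these 9 genes passed the test (smallest adjusted p of 0.325, that of Acadvl, in limma).

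The carnitine shuttle carries long-chain fatty acids into mitochondria. Cpt1a, its rate-limiting outer membrane transferase, ran from 9.90 through a median of 10.24 to 10.27 under TUDCA and from 9.76 through 10.14 to 10.30 under vehicle. The groups covered nearly the same span, and the difference was 0.08 ± 0.10 (SE; 95% interval from −0.12 to 0.29; adjusted p of 0.763 in limma). Cpt2, the inner membrane transferase, differed by 0.12 ± 0.06 (SE; adjusted p of 0.333 in limma). Slc25a20, the carnitine/acylcarnitine carrier between them, had the lowest p of the 3. Its TUDCA values ran from 9.71 through 9.86 to 10.14 and its vehicle values from 10.01 through 10.09 to 10.25. Of the TUDCA values 5 lay below all vehicle values and replicate 3 among them, and the difference of −0.26 ± 0.07 (SE) missed the threshold with an adjusted p of 0.0749 in limma. It passed without TUDCA replicate 3 (−0.30, adjusted p of 0.0162), with dim probe sets left out (−0.26, adjusted p of 0.0443) and with array weights (−0.30, adjusted p of 0.0179), and ran from 0.0162 to 0.536 over all alternatives.

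Of the 8 measured genes of the mitochondrial β-oxidation spiral 7 had positive differences, with a median of 0.07, and 1 of them passed. Acads, the short-chain acyl-CoA dehydrogenase, which takes the first step on the shortest chains, rose. Log2 values of Acads ran from 9.13 through 9.38 to 9.69 under TUDCA and from 8.76 through 9.19 to 9.60 under vehicle. The groups overlapped broadly, since the 2 high-range vehicle samples were low (8.76 and 8.77) and the 4 low-range ones higher (9.09 to 9.60), but each TUDCA value lay above the vehicle mean of its own range. Means were 9.39 ± 0.22 (SD, n = 6) and 9.16 ± 0.35 (SD, n = 6), and the difference was 0.39 ± 0.09 (SE; adjusted p of 0.0348 in limma), 1.31-fold, with 0.27 in the low and 0.50 in the high range. The call was lost without the number range (0.23, adjusted p of 0.515), in the low range alone (adjusted p of 0.420), in the high range alone (0.197), with no variance trend (0.0575) and without any 1 of 8 arrays, TUDCA replicates 1, 2, 4 and 5 and vehicle replicates 2, 3, 5 and 6, with adjusted p from 0.0127 to 0.515 over all alternatives. It was also lost with the replicate numbers as terms of the fit, with or without the number range.

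The dehydrogenases for longer chains did not pass. Acadm, the medium-chain enzyme, ran from 10.75 through 10.86 to 11.05 under TUDCA and from 10.61 through 10.86 to 10.87 under vehicle. TUDCA replicates 3, 4 and, barely, 5 were above all vehicle samples and vehicle replicate 5 was below all others, and the difference was 0.09 ± 0.07 (SE; adjusted p of 0.649 in limma). Acadl and Acadvl, the long-chain and very-long-chain enzymes, differed by 0.05 ± 0.08 and 0.12 ± 0.05, and in Acadvl all 6 TUDCA values lay above the vehicle mean of their range. Hadha, the α subunit of the trifunctional protein, which carries out later steps on long chains, held some of the tightest values of the list. They ran from 11.23 through 11.30 to 11.36 under TUDCA and from 11.20 through 11.25 to 11.30 under vehicle, overlapping over most of that span, with a difference of 0.06 ± 0.05 (SE; 95% interval from −0.03 to 0.16; adjusted p of 0.601 in limma). Hadh, the dehydrogenase for short-chain hydroxyacyl-CoA, was the 1 gene of the 8 with a negative difference, −0.08 ± 0.06. Acaa2, the mitochondrial thiolase, differed by 0.24 ± 0.08 (SE; adjusted p of 0.164 in limma), with all 6 TUDCA values above the vehicle mean of their range, and Etfdh, which passes the electrons on to the respiratory chain, differed by 0.04 ± 0.06. The auxiliary enzymes for unsaturated fatty acids, Decr1, Eci1 and Eci2, differed by −0.02, 0.12 and −0.03 (0 of 3 passed, smallest adjusted p of 0.575 in limma, 0 at an unadjusted p under 0.05).

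**Figure D2:**
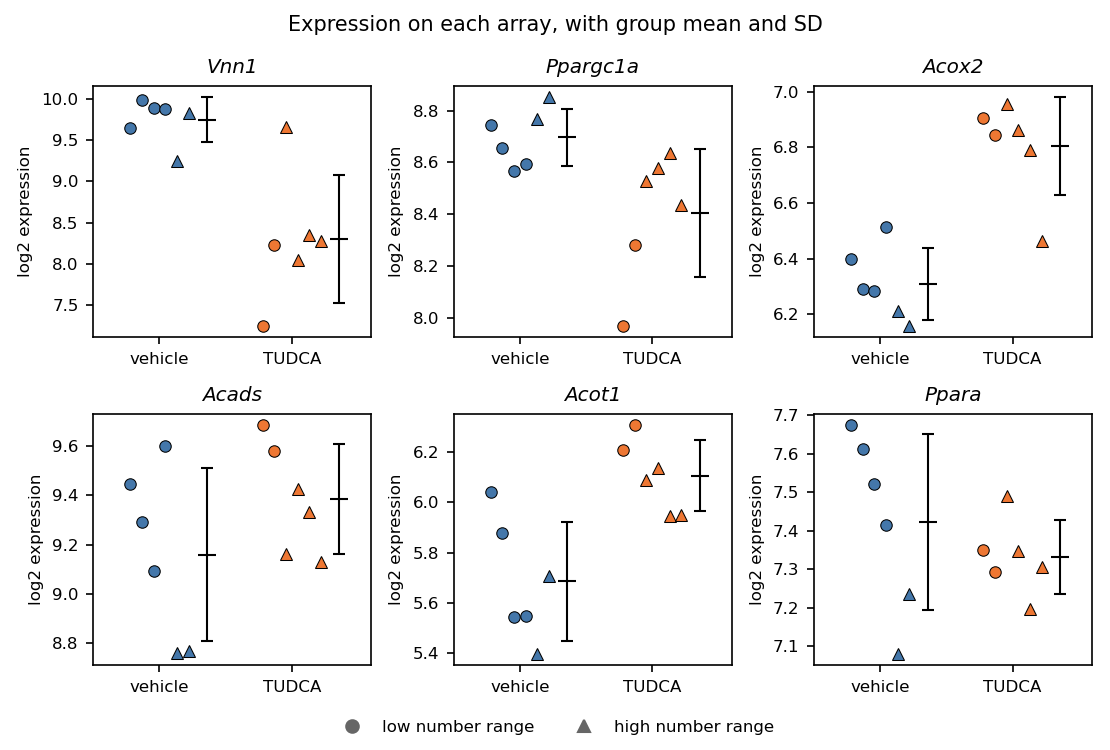
Log2 expression on each of the 12 arrays for the 5 genes that passed and for Ppara, with vehicle samples on the left and TUDCA samples on the right of each panel, circles for the low and triangles for the high number range, and bars for the group mean and SD (n = 6). All 6 TUDCA values of Vnn1 except 9.66 lie at 8.35 or below while the vehicle values lie at 9.25 or above, and in Acads and Ppara the vehicle samples of the high range lie below those of the low range.

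In the peroxisome, which shortens very long and branched chains, Acox2 rose and the other 4 listed genes did not pass. Acox2 encodes an acyl-CoA oxidase that acts on the side chain of bile acid precursors. Log2 values of Acox2 ran from 6.46 through 6.85 to 6.96 under TUDCA and from 6.16 through 6.29 to 6.51 under vehicle. The 5 highest TUDCA values (6.79 to 6.96) lay above all vehicle values, and replicate 6 (6.46) lay between vehicle replicates 1 and 4. Means were 6.80 ± 0.18 (SD, n = 6) and 6.31 ± 0.13 (SD, n = 6), and the difference was 0.54 ± 0.09 (SE; adjusted p of 0.00452 in limma), 1.46-fold, the lowest p of the list. By range it was 0.50 (low) and 0.58 (high), and it passed with any 1 array left out. In the high range alone, with 6 arrays, it did not pass (0.58, adjusted p of 0.252), and over all alternatives adjusted p ran from 0.00117 to 0.252 in limma. Ehhadh, the peroxisomal bifunctional enzyme and a classical PPARα target, differed by −0.18 ± 0.08 (SE; adjusted p of 0.352 in limma). It lay lower under TUDCA in the low range (−0.32) and passed without vehicle replicate 5, the lowest vehicle array at 8.15 (−0.29, adjusted p of 0.0475), with adjusted p from 0.0475 to 0.937 over all alternatives. The peroxisomal thiolases Acaa1a and Acaa1b differed by −0.06 ± 0.10 and −0.04 ± 0.14. They are near-identical copies whose probes may read both, so their separate values are uncertain. Decr2, a peroxisomal reductase for unsaturated chains, differed by −0.09 ± 0.06.

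Of the ketone body genes, Bdh1, the hydroxybutyrate dehydrogenase, differed by 0.07 ± 0.06. Acat1, the mitochondrial acetoacetyl-CoA thiolase, ran from 10.26 through 10.44 to 10.53 under TUDCA and from 10.04 through 10.15 to 10.41 under vehicle. Of the TUDCA values 4 lay above all vehicle values, all 6 lay above the vehicle mean of their range, and the difference of 0.24 ± 0.07 (SE) missed the threshold with an adjusted p of 0.112 in limma. It passed with renewed quantile normalisation (0.27, adjusted p of 0.0390), with array weights (0.29, adjusted p of 0.0234) and without vehicle replicate 5 (0.30, adjusted p of 0.0466), and adjusted p ran from 0.0234 to 0.604 over all alternatives.

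The acyl-CoA thioesterases, which release free acids from coenzyme A, gave 1 call in 3 genes. Acot1, the cytosolic long-chain enzyme, rose, but it was dim, with values near the array medians of 5.90 to 5.95. The filter on dim probe sets left no value for it. Log2 values of Acot1 ran from 5.95 through 6.11 to 6.31 under TUDCA and from 5.40 through 5.63 to 6.04 under vehicle. Only vehicle replicate 1 (6.04) lay above the lowest TUDCA values, and all 6 TUDCA values were above the vehicle mean of their range. Means were 6.11 ± 0.14 (SD, n = 6) and 5.68 ± 0.24 (SD, n = 6), and the difference was 0.49 ± 0.10 (SE; adjusted p of 0.0189 in limma), 1.41-fold, with 0.51 in the low and 0.48 in the high range. The call was lost without TUDCA replicate 1 (adjusted p of 0.0636), TUDCA replicate 2 (0.0763) or vehicle replicate 5 (0.0550), without the number range (0.42, adjusted p of 0.0545), and in the low (0.175) or the high range alone (0.294), with adjusted p from 0.0101 to 0.294 over all alternatives. The call of Acot1 was also lost with the replicate numbers and the number range together as terms of the fit. Acot2, its mitochondrial neighbour on the same chromosome, ran from 8.35 through 8.69 to 9.39 under TUDCA and from 8.35 through 8.62 to 9.18 under vehicle. The groups spanned nearly the same values, and the difference was 0.01 ± 0.19 (SE; adjusted p of 0.995 in limma). The difference between the changes of these 2 genes was not tested. Acot1 and Acot2 have closely similar coding sequences, so that probes of 1 may read the other, but they start from separate promoters, shown here because 1 gene of the pair passed and the other did not. Both windows are the 250 bases before the start on the plus strand of GRCm38.p6 (RefSeq), Acot1 at chr12:84009252-84009501 and Acot2 at chr12:83987611-83987860, and no letters are in capitals because none of the searched motifs stood in either.
Acot1 promoter: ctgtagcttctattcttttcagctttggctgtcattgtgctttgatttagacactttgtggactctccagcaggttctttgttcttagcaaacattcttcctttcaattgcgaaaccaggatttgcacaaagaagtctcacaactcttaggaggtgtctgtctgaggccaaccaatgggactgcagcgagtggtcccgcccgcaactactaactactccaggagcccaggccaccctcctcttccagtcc
Acot2 promoter: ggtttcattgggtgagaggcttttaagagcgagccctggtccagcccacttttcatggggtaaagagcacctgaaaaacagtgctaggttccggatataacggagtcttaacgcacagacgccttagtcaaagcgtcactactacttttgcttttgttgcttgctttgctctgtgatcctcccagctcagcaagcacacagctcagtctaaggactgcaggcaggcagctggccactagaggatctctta
Compared position by position, without gaps, 65 of the 250 bases were the same, 26%. An inserted base or a shifted start would lower this share, so it does not show whether the 2 promoters are related. The third thioesterase, Acot12, a cytosolic acetyl-CoA hydrolase, varied most among the vehicle samples (5.49 through 6.54 to 7.88) and ran from 5.81 through 5.87 to 6.69 under TUDCA, where replicate 3 was the 1 high array. The difference was −0.47 ± 0.31 (SE; adjusted p of 0.560 in limma).

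Vnn1 had the largest difference of the list. It encodes vanin-1, a surface pantetheinase that is a classical PPARα target in liver and gut. Values ran from 7.25 through 8.26 to 9.66 in the TUDCA samples and from 9.25 through 9.85 to 9.99 in the vehicle samples. The 5 lowest TUDCA samples (7.25 to 8.35) were lower than every vehicle sample, and TUDCA replicate 3 (9.66) lay among the vehicle samples. Means were 8.30 ± 0.78 (SD, n = 6) and 9.75 ± 0.27 (SD, n = 6), and the difference was −1.53 ± 0.29 (SE; adjusted p of 0.0119 in limma), 2.89-fold lower. By range it was −2.10 (low) and −0.96 (high), and without TUDCA replicate 3 it was −1.73 (adjusted p of 0.000448). The call was lost without TUDCA replicate 1 (−1.20, adjusted p of 0.0565), with robust variances (adjusted p of 0.0577) and in the high range alone (adjusted p of 0.464), and adjusted p ran from 0.000448 to 0.464 over all alternatives. Enterocyte markers moved in the same direction: 5 of 18 measured fell (Anpep, Dpp4, Slc15a1, Apob and Npc1l1), against 1.57% of all genes, and 0 rose. Their median difference was −0.19, and their mean level ran from 11.03 to 11.26 in the TUDCA samples and from 11.24 to 11.42 in the vehicle samples. Their part in the values of Vnn1 was not tested.

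Pdk4, the kinase that turns off pyruvate dehydrogenase and so spares glucose when fat is burnt, did not pass. Log2 values of Pdk4 ran from 6.56 through 6.86 to 7.98 under TUDCA and from 6.65 through 7.71 to 8.19 under vehicle. Of the TUDCA samples 5 lay at 7.10 or below, TUDCA replicate 3 (7.98) lay with the 3 highest vehicle samples (up to 8.19), and vehicle replicate 5 (6.65) lay with the low TUDCA samples. The difference was −0.55 ± 0.29 (SE; 95% interval from −1.16 to 0.06; adjusted p of 0.415 in limma). In the low range alone it was −1.27 (adjusted p of 0.0187) and within the high range 0.17, and adjusted p ran from 0.0187 to 0.900 over all alternatives. Angptl4, a secreted inhibitor of lipoprotein lipase, differed by −0.16 ± 0.16, and Plin2, a coat protein of lipid droplets, by 0.06 ± 0.12.

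**Figure D3:**
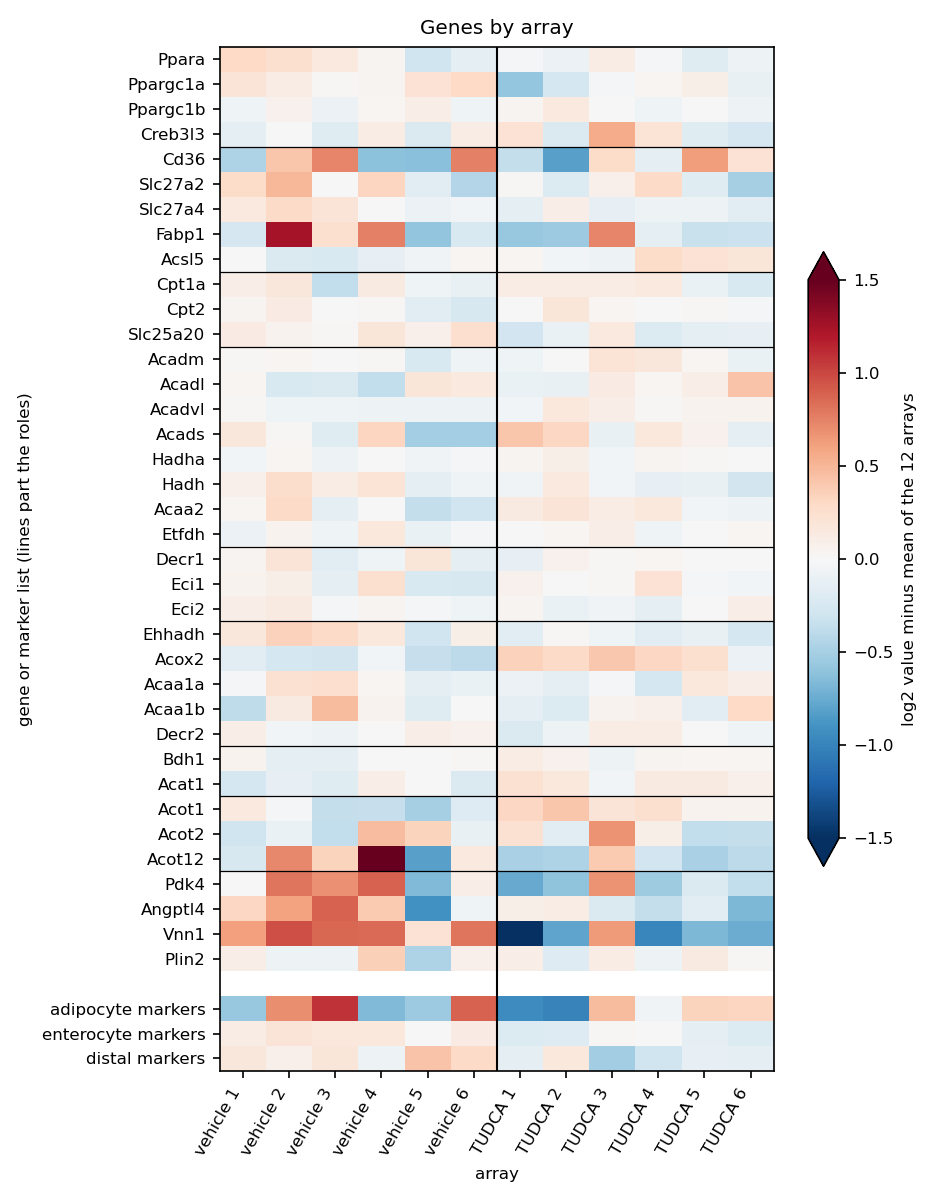
Log2 value of each of the 37 genes (rows, parted by role) on each array (columns, vehicle left, TUDCA right) minus the gene's mean over the 12 arrays, with the mean level of the adipocyte, enterocyte and distal small intestine markers below. Fabp1, Acot12, Pdk4 and Vnn1 are redder in TUDCA replicate 3 than in the other TUDCA arrays, Cd36 follows the adipocyte markers, and most β-oxidation genes stay pale across all arrays.

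Among other genes, TUDCA replicate 3 had the highest TUDCA value in Vnn1, Pdk4, Fabp1, Acot12, Acot2, Creb3l3, Slc25a20, Acadm and Ppara. Its mean level of 9 distal small intestine markers was 9.84, against 10.06 to 10.51 on the other TUDCA arrays and 10.28 to 10.78 on the vehicle arrays, and its mean level of 9 proximal markers was 7.49, against 7.04 to 7.17 on the other TUDCA arrays and 7.30 to 7.53 on the vehicle arrays. The distal markers include the hormones Nts and Pyy, and the enteroendocrine markers were lowest on this array too. The part of the sampled segment or of enteroendocrine cells in these genes was not tested. Without this array the differences of Pdk4, Fabp1 and Acot12 were −0.71, −0.48 and −0.59, and none of the 3 passed (adjusted p of 0.138, 0.426 and 0.375 in limma). In the same samples 6 of 11 measured T and NK cell markers fell (Gzma with a difference of −1.97 and Cd8a of −1.03), against 1.57% of all genes. Of 8 goblet cell markers 3 rose, against 1.01% of all genes. The part of such shifts in the listed genes was not tested either.

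The number ranges gave different values for several genes, none of which passed the test of that difference. The median difference of the 37 genes was −0.05 in the low range and 0.14 in the high one. A test of the interaction of treatment and range found 0 of the 37 genes past an adjusted p of 0.05 in limma (smallest 0.516), as it found 0% of all 21408 genes. At an unadjusted p under 0.05 it gave 7 of the 37 genes, Ppara, Slc27a2, Fabp1, Acadm, Acot12, Pdk4 and Vnn1, against 7.67% of all genes. In all 7 the difference was more positive in the high range. The largest such gaps were those of Pdk4 (1.44, unadjusted p of 0.00558) and Fabp1 (1.44, unadjusted p of 0.0120). The high range holds only 2 vehicle samples, of which replicate 5 was the lowest vehicle array in Vnn1, Pdk4, Fabp1, Acot12, Angptl4, Plin2 and Ehhadh, and without it Pdk4 differed by −0.87 and Vnn1 by −1.78 over both ranges.

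**Figure D4:**
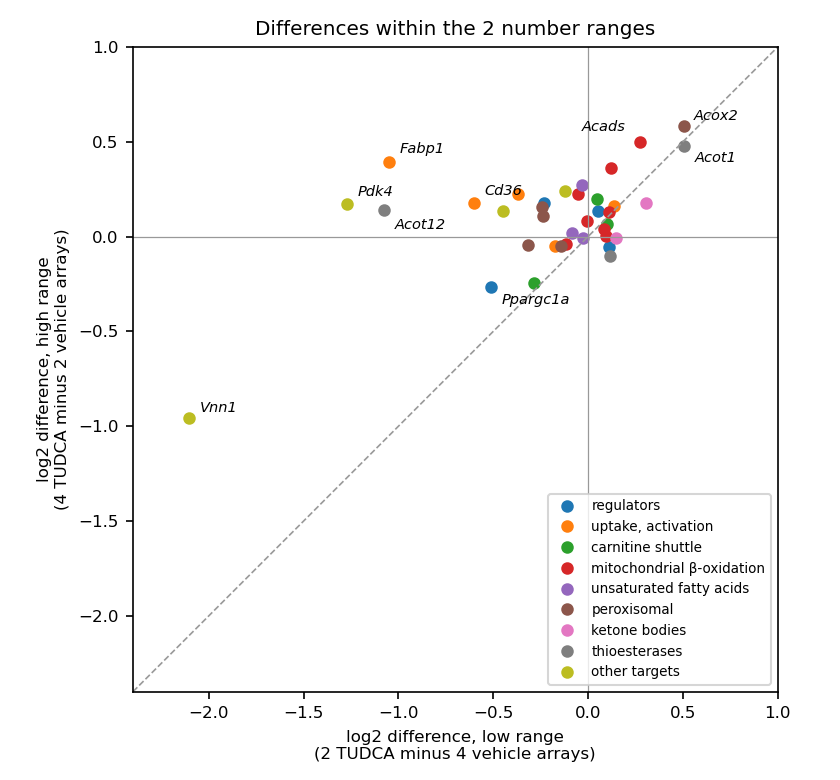
Difference between TUDCA and vehicle within the low number range (horizontal axis, 2 against 4 arrays) and within the high number range (vertical axis, 4 against 2 arrays), both in log2 units, 1 point per gene, with equal differences on the dashed line. Acox2 and Acot1 lie close to the line, whereas Pdk4, Fabp1 and Acot12 are negative on the horizontal and positive on the vertical axis.

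Of 112 further genes of the pathway 96 were measured, and 4 rose and 4 fell, with a median difference of −0.01. Over all genes 2.59% passed, 1.01% higher and 1.57% lower. An unadjusted p under 0.05 in limma was found for 26 of the 96 genes, 8 higher and 18 lower, against 14.2% of all genes. Among the receptors and coregulators Pparg, the receptor of fat storage that also acts in gut epithelium and macrophages, rose by 0.80 ± 0.17 (SE; adjusted p of 0.0248 in limma), 1.74-fold. Its values ran from 7.24 through 7.55 to 7.77 under TUDCA and from 6.18 through 6.77 to 7.28 under vehicle, the groups touching only at their ends. Rxrg, a retinoid X receptor, was dim and fell by 0.43 on the log2 scale (adjusted p of 0.0243), from vehicle values of 4.91 to 5.37 to TUDCA values of 4.53 to 4.83. Ppard, the receptor PPARδ, differed by −0.21 ± 0.13 (SE; adjusted p of 0.518 in limma). None of the 8 adipocyte markers passed beside Pparg, and their levels are those given with Cd36. The differences of these markers were negative in 7 and positive in 1, with a median of −0.41. Their part in the values of Pparg was not tested.

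Among the further oxidation genes Etfb, the β subunit of the electron transfer flavoprotein, rose by 0.33 ± 0.08 (SE; adjusted p of 0.0336 in limma). Acox3, a peroxisomal oxidase for branched chains, fell by 0.29 (adjusted p of 0.0305 in limma), from vehicle values of 8.32 to 8.55 to TUDCA values of 8.02 to 8.29. Slc16a1, the monocarboxylate transporter that carries ketone bodies and lactate, rose by 0.35 ± 0.07 (SE; adjusted p of 0.0132), from vehicle values of 9.42 to 9.66 to TUDCA values of 9.76 to 9.98. The last list holds PPAR targets and related genes, not all of them known targets. In it Ephx2, the soluble epoxide hydrolase of fatty acid epoxides, fell 2.58-fold, by 1.37 on the log2 scale (adjusted p of 0.00615 in limma). Its values ran from 6.62 through 7.31 to 8.24 under TUDCA and from 7.99 through 8.67 to 8.89 under vehicle, with TUDCA replicate 3 (8.24) again the 1 array within the vehicle span. The enterocyte marker levels given with Vnn1 were lower in the same samples, and their part in the values of Ephx2 was not tested. Pnpla2, the adipose triglyceride lipase that frees fatty acids from droplets, fell by 0.33 (adjusted p of 0.0144), and Pdk1, another pyruvate dehydrogenase kinase, rose by 0.33 ± 0.08 (SE; adjusted p of 0.0480 in limma).

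In 6 of these 96 genes the groups did not overlap, against 2.02% of all genes. Among the 8 that passed, Rxrg, Acox3 and Pnpla2 lay lower in every TUDCA sample and Slc16a1 and Pdk1 higher. Ephx2 passed with any 1 array left out (adjusted p from 0.000922 to 0.0396), and the others did not. Pparg was lost without TUDCA replicate 1 (adjusted p of 0.104) or vehicle replicate 5 (0.0584), Slc16a1 without TUDCA replicate 2 (0.0667), and Pnpla2 without TUDCA replicate 1 (0.0733) or vehicle replicate 6 (0.0607). Rxrg was lost without TUDCA replicate 1 (0.0552), TUDCA replicate 2 (0.0853) or vehicle replicate 6 (0.107). Acox3 was lost without TUDCA replicates 1 or 2 or vehicle replicates 1, 2, 3 or 6 (up to 0.145), Etfb without any array except TUDCA replicate 3 and vehicle replicate 1 (up to 0.0922) and Pdk1 without any array except TUDCA replicate 3 (up to 0.169). All 8 were lost in the high range alone. With single arrays left out the counts ran from 1 to 5 higher and from 1 to 6 lower.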

How the data were processed

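Small intestine was measured on 12 arrays, 6 per group. The deposited table holds log2 expression values that the authors made with the oligo package and RMA (background correction, quantile normalisation and probe summarisation), per the submitters' processing notes, with versions and filters not given in the sources used here. RMA makes array distributions alike, so a shift of all transcripts would not be seen, and dim genes have compressed differences. Probe sets were named through GEO's platform annotation, under which 21557 named 1 gene, 787 several and 1647 none. The number of arrays limits the precision.

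Differences were fitted to all 12 arrays with limma 3.58.1 in R 4.3.3 (lmFit, eBayes with a variance trend), with treatment and number range as terms. Two-sided p-values were adjusted by Benjamini-Hochberg over the 23991 probe sets, and the fit was tested on simulated data. A gene with several probe sets was read from the brightest. The 39 genes, the further lists and the rule for named genes (values by sample for genes past the threshold and for a fixed set of key genes, further pathway genes by smallest p) were chosen with earlier results of these data known. A few genes near the threshold, with Fabp1, Acot2 and Acot12, were described by sample after their values were seen. Promoter sequences come from RefSeq (GRCm38.p6), with entries for 33 of the genes. Alternatives varied the range term, replicate block, arrays, dim filter, normalisation, variance model, array weights and probe sets.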

Additional observations from a re-analysis of the deposited data

Results flagged for a closer look

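Within groups of 6 samples, 7 of 74 groups of the 37 genes had a sample far from the others by Dixon's test, where chance gives about 1 in 20. TUDCA replicate 3 was far above the other TUDCA samples in Fabp1 (6.08, next 5.21) and in Acot12 (6.69, next 6.01). TUDCA replicate 2 was far above the rest in Slc27a4 (10.39, next 10.21), which encodes a fatty acid transporter, and in Cpt2 (10.11, next 9.96). TUDCA replicate 6 was far below the rest in Acox2 (6.46, next 6.79). Among the vehicle samples, replicate 5 was far below the rest in Acadm (10.61, next 10.78) and replicate 1 far above the rest in Acadvl (9.08).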

How the results depend on the processing

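The 5 calls rest on 6 arrays per group, and the ranges of sample numbers, whose meaning the labels do not give, hold the groups unequally. With single arrays left out, calls over all probe sets ran from 91 to 292 higher (241 with all arrays) and from 151 to 417 lower (364), those among the 37 genes from 1 to 3 higher and 0 to 3 lower, and those among the other pathway genes from 1 to 5 higher and 1 to 6 lower. No gene of the 37 passed the interaction test under any alternative run (smallest adjusted p of 0.209).

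The replicate numbers are shared by the groups, and the labels do not say whether they pair the samples. Correlations of same-numbered samples, each taken relative to its group mean, ran from −0.06 to 0.26, and 3 of 6 were over 0.1. Samples of unlike number were not compared, so these values do not decide whether the numbers pair the samples. With the replicate block and the number range, calls over all probe sets were 85 higher and 190 lower, those of the 37 genes 1 higher (Acox2) and 1 lower (Vnn1), so that Acads (0.37, adjusted p of 0.0705), Acot1 (0.35, 0.141) and Ppargc1a (−0.42, 0.0853) were lost, and those of the other pathway genes 0 higher (9 at an unadjusted p under 0.05) and 1 lower. With the replicate block alone the 37 genes gave 2 higher (Acox2 and Acot1) and 1 lower (Vnn1), with Acads (0.23, adjusted p of 0.229) and Ppargc1a (−0.29, 0.159) lost, and the other pathway genes 2 higher. Without the number range the 37 genes gave 1 higher and 1 lower. The low range alone gave 1 higher among the 37 genes and 0 among the other pathway genes (6 at an unadjusted p under 0.05), and the high range alone, with 6 arrays, gave 6 higher and 3 lower over all probe sets and 0 in either direction among the 37 genes (6 higher and 2 lower at an unadjusted p under 0.05) and the other pathway genes (9 and 6). These are limma counts. Robust variances gave 1 lower among the 37 genes, no variance trend gave 2 higher among the other pathway genes, and array weights gave 436 higher over all probe sets and 7 higher and 7 lower among the other pathway genes. The cause was not tested.

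Signs turned only in genes that had not passed. In the high range alone the difference was 0.18 in Ppara, −0.053 in Ppargc1b, 0.18 in Cd36, 0.22 in Slc27a2, 0.40 in Fabp1, 0.021 in Eci2, 0.11 in Acaa1a, 0.16 in Acaa1b, −0.0097 in Bdh1, −0.10 in Acot2, 0.14 in Acot12, 0.17 in Pdk4 and 0.14 in Angptl4. In the low range alone it was −0.050 in Acadm, −0.0079 in Etfdh, −0.031 in Eci1, −0.12 in Plin2 and 0.14 in Ppard. With the replicate block and the number range it was −0.046 in Creb3l3, −0.048 in Cpt1a, 0.013 in Acaa1a, 0.053 in Acaa1b and −0.12 in Acot2. With array weights it was 0.0063 in Decr1, and with the mean of both probe sets 0.041 in Slc27a2. With single arrays left out it ran from −0.11 to 0.034 in Ppara, −0.012 to 0.081 in Ppargc1b, −0.20 to 0.043 in Slc27a2, −0.080 to 0.039 in Decr1, −0.055 to 0.0069 in Eci2, −0.13 to 0.031 in Acaa1b, −0.093 to 0.12 in Acot2 and −0.090 to 0.16 in Plin2. The filter on dim probe sets left no value for Acot1, Fabp1 and Rxrg, and the mean over probe sets no count over all probe sets.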
